A study of Mus musculus with 20 samples.

Results

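Microglia, the resident macrophages of the brain, and the complement component C1q that they make were followed through 9 genes in the preoptic area (POA) of male mice. The genes were chosen by symbol as textbook microglial genes, out of 25239 genes in the table: the receptors Cx3cr1, P2ry12, Csf1r and Trem2, the cell surface marker Tmem119, the calcium-binding protein gene Aif1, and the C1q chains C1qa, C1qb and C1qc. Earlier results of these data were known when they were chosen. All 9 had reads in every mouse and passed the filter on low counts in every comparison. The POA, a part of the hypothalamic region that holds many gonadotropin-releasing hormone (GnRH) neurons, came from 20 males killed at postnatal day (PND) 320, 5 for each of 4 groups, and its RNA was sequenced in bulk.

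Mice were control or dnFGFR, and were paired at PND 20 with a same-sex (SS) male or an opposite-sex (OS) female partner for 300 days. The dnFGFR mice were homozygous for a transgene that encodes a truncated, dominant-negative FGF receptor 1 without its tyrosine kinase domain, placed under a rat GnRH promoter so that it acts in GnRH neurons. Microglia are therefore not the cells in which the transgene is driven. Control mice shared the genetic background and descended from matings of heterozygous dnFGFR siblings. OS-housed males bred and lived with their litters, so mating, fatherhood and the sex of the partner belong to the same housing condition. Groups are named by genotype and then by housing. Replicates are single mice, and p-values measure the spread between these mice.

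Microglia survey nerve tissue and clear debris, dying cells and synapses. CSF1R keeps them alive, CX3CR1 receives the neuronal signal fractalkine, P2RY12 senses ADP from injured cells, and TREM2 binds lipids and apolipoproteins and signals through the adaptor TYROBP. C1q is assembled from its A, B and C chains, binds targets such as synapses, and starts the classical complement pathway. In bulk tissue, fewer microglia and less RNA per cell cannot be told apart.

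Counted reads per mouse ranged from 32353578 to 39871353, and the 9 genes together took 0.0299% to 0.0374% of them. Levels are given as CPM, counts scaled to a common library size with TMM factors, and 1 CPM stands for about 32.4 to 39.9 reads. dnFGFR OS replicate 5 stood apart from the other mice: it lay at 69.1 on the first principal component, where the other 19 lay between -30.1 and 16.2, and it had reads on 18416 genes against 19101 to 19659 in the others. Fgfr1, the gene of the truncated receptor, had group means of 87.9 CPM in control SS, 91.7 in control OS, 88.2 in dnFGFR SS and 89.7 in dnFGFR OS mice, and gene counts cannot separate the transgene from the mouse gene. Gnrh1, the gene of GnRH itself, was lower in dnFGFR mice over both housings (log2 fold change -0.58, adjusted p = 0.0657 by edgeR's quasi-likelihood test with Benjamini-Hochberg adjustment), with group means of 2.01, 2.01, 1.27 and 1.42 CPM in the same order. No sacrifice date was shared between genotypes, so effects of genotype and of date cannot be told apart. Of other immune cell markers, 7 of 8 monocyte and neutrophil genes and 8 of 9 T and B cell genes averaged below 1 CPM. The T and B cell list summed to 22.6 to 47.0 CPM, nearly all of it from Cd4 (mean 36.3 CPM), while border-associated macrophage genes summed to 18.6 to 27.3 CPM against 301.3 to 371.8 CPM for the 9 microglial genes. Choroid plexus markers summed to between 37.4 and 2171 CPM and red blood cell markers to between 378.3 and 1641 CPM, and their part in the results was not tested.

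The genes of the C1q chains are neighbours. C1qb, C1qc and C1qa lie in this order on the minus strand of chromosome 4 within 18719 bases, at chr4:136880126-136898844 (GRCm38.p6), with gaps of 3600 and 2979 bases between them. The others are spread over the genome, with Cx3cr1 at chr9:120048683-120068296, P2ry12 at chr3:59216271-59262985, Tmem119 at chr5:113793729-113800396, Aif1 at chr17:35170986-35176083 and Trem2 at chr17:48346401-48352276. Promoter windows from 250 bases before to 50 bases after the start site were at hand in RefSeq (GRCm38.p6) for 6 of the 9 genes, and C1qa, Tmem119 and Csf1r had no entry. Shown are the windows of C1qb and C1qc, of Trem2 and of Cx3cr1. Among mice the level of Trem2 went with that of C1qb, and that of Cx3cr1 did not. The windows of Aif1 and P2ry12 are not shown. Their Pearson r with C1qb over 20 mice, group means removed, was 0.0567 and -0.48. The windows shown lie at chr4:136886151-136886450, chr4:136892865-136893164 and chr9:120068247-120068546 on the minus strand and at chr17:48346151-48346450 on the plus strand. Capitals mark the letters GAGGAA, a core bound by PU.1, the factor that specifies macrophages, or their reverse complement TTCCTC.
C1qb: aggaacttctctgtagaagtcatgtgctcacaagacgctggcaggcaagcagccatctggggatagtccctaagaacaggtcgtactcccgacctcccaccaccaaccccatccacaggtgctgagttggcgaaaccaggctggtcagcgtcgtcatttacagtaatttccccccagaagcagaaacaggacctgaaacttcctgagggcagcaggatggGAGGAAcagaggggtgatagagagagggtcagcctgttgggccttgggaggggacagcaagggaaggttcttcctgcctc
C1qc: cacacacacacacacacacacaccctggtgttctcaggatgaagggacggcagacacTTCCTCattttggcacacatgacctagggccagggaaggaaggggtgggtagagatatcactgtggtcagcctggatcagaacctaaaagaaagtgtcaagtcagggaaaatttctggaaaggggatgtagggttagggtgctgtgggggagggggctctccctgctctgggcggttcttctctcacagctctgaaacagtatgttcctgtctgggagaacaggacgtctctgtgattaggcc
Trem2: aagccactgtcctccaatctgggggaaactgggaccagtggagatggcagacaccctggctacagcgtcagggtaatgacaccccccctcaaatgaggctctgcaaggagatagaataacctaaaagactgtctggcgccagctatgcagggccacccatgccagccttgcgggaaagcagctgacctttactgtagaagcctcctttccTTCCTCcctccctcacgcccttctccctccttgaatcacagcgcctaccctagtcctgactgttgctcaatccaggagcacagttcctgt
Cx3cr1: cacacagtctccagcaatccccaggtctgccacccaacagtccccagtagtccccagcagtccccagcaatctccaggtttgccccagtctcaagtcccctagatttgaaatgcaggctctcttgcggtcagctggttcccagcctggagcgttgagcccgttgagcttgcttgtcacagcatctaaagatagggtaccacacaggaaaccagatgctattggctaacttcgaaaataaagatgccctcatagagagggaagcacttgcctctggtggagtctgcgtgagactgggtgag
GAGGAA on either strand was in the windows of C1qb, C1qc, Aif1 and Trem2, and not in those of P2ry12 and Cx3cr1, while 28.3% of 32851 promoter windows held it. In C1qb it began 30 bases before the start site, in Trem2 40 bases, in C1qc 193 bases and in Aif1 7 bases before it. GGAAGT, a core shared by ETS factors, was in the windows of P2ry12, C1qb and C1qc (23.8% of all windows), and in C1qc it overlapped the PU.1 core. The paired site of IRF factors was in Aif1 alone (3.44%). TGCTGA, part of the site of MAF factors, was in C1qb alone (19.5%). These matches describe letters in a window and not bound sites.

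Compared per length, as CPM per kilobase of mRNA (RPKM), the C1q chains were among the most abundant of the 9 transcripts. The mean over 20 mice was 39.3 ± 7.36 RPKM (SD) for C1qa, 31.2 ± 6.14 for C1qb, 28.1 ± 1.78 for Csf1r, 22.2 ± 4.20 for C1qc, 18.4 ± 1.76 for P2ry12, 14.7 ± 1.99 for Cx3cr1, 10.9 ± 1.56 for Trem2, 8.64 ± 1.13 for Tmem119 and 4.94 ± 0.830 for Aif1. P2ry12 was above Cx3cr1 in 20 of 20 mice, and each of the 3 steps below Cx3cr1 in this order held in 19 of 20. C1qb and Csf1r were the least separated neighbours, with C1qb higher in 14 of 20 mice and a mean difference of 3.18 RPKM against an SD of 6.88. The step from C1qa to C1qb was 8.05 RPKM in the mean (SD 8.21, 17 of 20 mice), and that from C1qc to P2ry12 was 3.81 (SD 5.22, 16 of 20). Both means were also below the SD of the differences in single mice, though both steps held in most mice. Csf1r was above C1qc in 18 of 20 mice, by 5.88 RPKM with an SD of 5.28.

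The genes differed in how tightly they were held among mice of a group. Csf1r had a within-group coefficient of variation of 5.71%, below the median of 8.37% over 2223 genes of similar level, and P2ry12 had 8.36% against 9.03%. The C1q chains varied by 18.9% (C1qa), 19.3% (C1qb) and 18.2% (C1qc), against 9.10%, 9.37% and 9.86% for genes of similar level. Counting error at this depth accounts for 2.63% to 3.24% in the C1q chains and for 8.09% in Aif1, which varied by 18.3% against 18.4% in its peers. Cx3cr1 (13.1%), Tmem119 (13.8%) and Trem2 (14.5%) lay between.

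None of the 9 genes was called, at an adjusted p under 0.1, in any of the 7 comparisons. Among all tested genes, called were 0.124% for housing in control mice, 0% for housing in dnFGFR mice, 0.2% for genotype in SS mice, 0.0531% for genotype in OS mice, 0% for the housing by genotype interaction, 0.0344% for housing over both genotypes and 1.33% for genotype over both housings. The CPM ranges of each gene overlapped between the groups in all 4 pairwise comparisons, where 1.61%, 1.42%, 1.57% and 1.56% of all genes did not overlap, in the order of the first 4 comparisons above. The tests used edgeR's quasi-likelihood method on deposited counts with Benjamini-Hochberg adjustment over all tested genes, and all p-values below come from it and are two-sided. Comparisons that share a group of mice are not independent of each other.

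**Figure D1:**
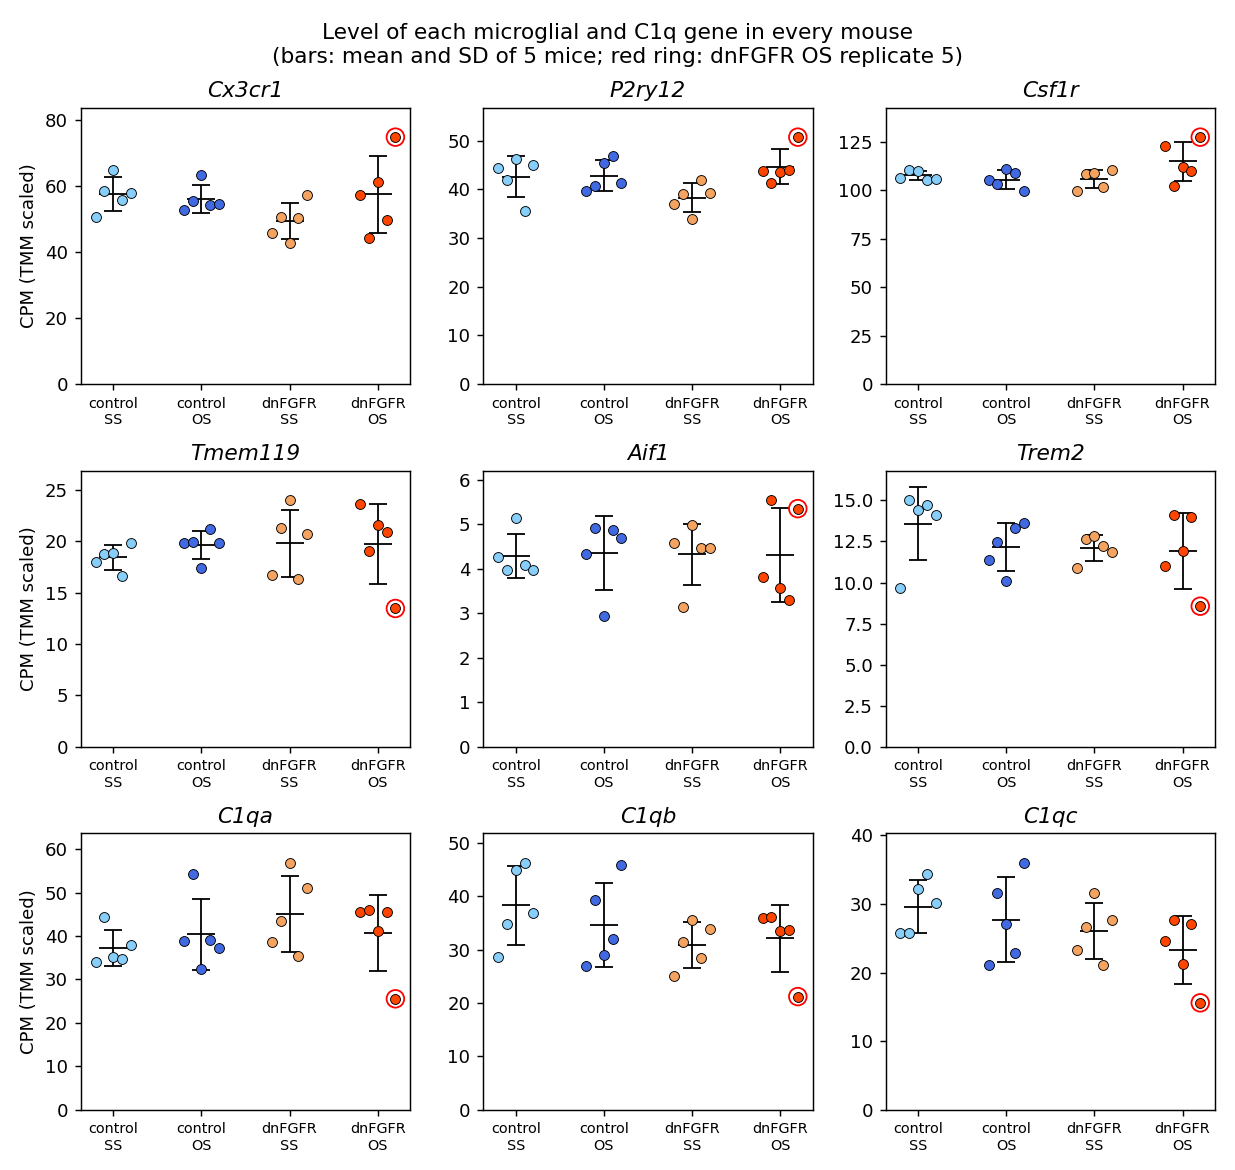
CPM (TMM scaled, vertical axes from 0) of each of the 9 genes in every mouse, by group on the horizontal axis, with bars for the mean and SD of 5 mice and a red ring around dnFGFR OS replicate 5. In that mouse Cx3cr1 (74.8 CPM), P2ry12 (50.7) and Csf1r (127.5) were at their highest and C1qa (25.6), C1qb (21.2), C1qc (15.6), Tmem119 (13.4) and Trem2 (8.56) at their lowest of the 20 mice.

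Cx3cr1, the fractalkine receptor, was measured in replicates 1 to 5 at 50.7, 58.3, 64.9, 55.8 and 57.7 CPM in control SS and 52.7, 55.5, 63.1, 54.1 and 54.5 CPM in control OS mice. In dnFGFR mice it was 45.8, 50.7, 42.8, 50.4 and 57.2 CPM in SS and 57.2, 44.3, 61.3, 49.8 and 74.8 CPM in OS housing. The dnFGFR SS mice were lowest as a group, and all ranges overlapped. Among SS mice, Cx3cr1 was lower in dnFGFR mice, short of a call (log2 fold change -0.22, SE 0.0791, adjusted p = 0.423). In OS mice the difference was 0.0386 with a 95% interval from -0.23 to 0.31, and it was on the other side of 0 without dnFGFR OS replicate 5 (-0.0785) and with the GC and length trend of each mouse, described below, removed (-0.0100). The difference between the housing effects of the genotypes was 0.26 (SE 0.152, adjusted p = 0.963 by edgeR), and 0.15 without dnFGFR OS replicate 5.

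P2ry12, the ADP receptor of resting microglia, was 44.4, 42.0, 46.1, 35.5 and 44.9 CPM in control SS and 39.6, 40.6, 45.4, 46.8 and 41.3 CPM in control OS mice. In dnFGFR mice it was 36.9, 39.1, 34.0, 42.0 and 39.2 CPM in SS and 43.8, 41.3, 43.5, 44.0 and 50.7 CPM in OS housing. Only 1 dnFGFR SS mouse, replicate 4, was above the lowest dnFGFR OS mouse, while the control groups lay on top of each other. Of the 9 genes P2ry12 had the smallest p for housing in dnFGFR mice (log2 fold change 0.23, SE 0.0801, adjusted p = 0.726), under 0.05 before adjustment, where 6.72% of all genes had an unadjusted p under 0.05. It was 0.18 without dnFGFR OS replicate 5, and 0.0955 (SE 0.0599, with an unadjusted p then over 0.05) once the GC and length trend was removed. In control mice the housing difference of P2ry12 was 0.00526 (95% interval -0.15 to 0.16). The interaction was 0.22 (SE 0.109, adjusted p = 0.963) and housing over both genotypes gave 0.12 (SE 0.0583, adjusted p = 0.475), the smallest p of the 9 genes in each. With the GC and length trend removed these were 0.13 and 0.0291. Among SS mice P2ry12 was also lower in dnFGFR mice, short of a call (log2 fold change -0.16, SE 0.0740, adjusted p = 0.576). P2ry12 lies inside Med12l, on the opposite strand, with 9 shared exon bases, so reads from introns of Med12l that fall on P2ry12 exons cannot be told apart without strand.

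Csf1r, the receptor for the survival factors CSF1 and IL-34, was 106.5, 110.8, 110.1, 105.3 and 106.0 CPM in control SS and 105.3, 103.1, 111.3, 109.0 and 99.5 CPM in control OS mice. In dnFGFR mice it was 99.7, 108.5, 109.0, 101.9 and 110.6 CPM in SS and 122.7, 102.5, 112.0, 110.2 and 127.5 CPM in OS housing. Replicates 1 and 5 of dnFGFR OS mice stood above all other mice. Of the 9 genes Csf1r had the smallest p for genotype in OS mice (log2 fold change 0.12, SE 0.0740, adjusted p = 0.774), and without dnFGFR OS replicate 5 the difference was 0.0784. Csf1r also had the narrowest intervals: its housing difference in control mice was -0.0292 (95% interval -0.12 to 0.0664), and its genotype difference in SS mice -0.0274 (-0.12 to 0.0687). Csf1r lies at chr18:61105572-61131139 (GRCm38.p6). In the GENCODE annotation it shares 873 exon bases with Hmgxb3, while in RefSeq, the annotation of the counts, the spans of the 2 genes do not overlap.

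Tmem119, a membrane protein that sets microglia apart from other macrophages, was 18.0, 18.8, 18.9, 16.6 and 19.8 CPM in control SS and 19.8, 19.9, 17.4, 21.2 and 19.8 CPM in control OS mice. The dnFGFR mice had 16.7, 21.2, 24.0, 16.3 and 20.7 CPM of Tmem119 in SS and 23.6, 19.0, 21.6, 20.9 and 13.4 CPM in OS housing. The dnFGFR groups reached both higher and lower than the control groups, with means of 19.8 and 19.7 CPM against 18.4 and 19.6. Aif1, which encodes the protein known as IBA1, was the scarcest of the 9, at 4.27, 3.97, 5.14, 4.09 and 3.97 CPM in control SS and 4.34, 4.91, 2.93, 4.87 and 4.69 CPM in control OS mice. Among dnFGFR mice Aif1 was 4.57, 3.15, 4.97, 4.47 and 4.46 CPM in SS and 3.82, 5.54, 3.57, 3.29 and 5.35 CPM in OS housing. The 4 group means of Aif1 lay between 4.29 and 4.35 CPM, and 103 to 203 reads stood behind its values.

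Trem2, the lipid-sensing receptor, was 9.65, 15.0, 14.4, 14.7 and 14.1 CPM in control SS and 11.4, 12.5, 10.1, 13.3 and 13.6 CPM in control OS mice. The dnFGFR mice had 10.9, 12.7, 12.8, 12.2 and 11.9 CPM in SS and 11.0, 14.1, 11.9, 14.0 and 8.56 CPM in OS housing. In control SS mice 4 of 5 were above every control OS mouse, and replicate 1 was below them all. Trem2 had the smallest p of the 9 genes for housing in control mice (log2 fold change -0.16, SE 0.120, adjusted p = 0.830). Leaving out control SS replicate 1 gave -0.26 and leaving out control OS replicate 3 gave -0.0994, neither called. Within sacrifice dates that held both housings, which left 2 SS and 5 OS mice, the difference was -0.26 (SE 0.124), also not called.

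**Figure D2:**
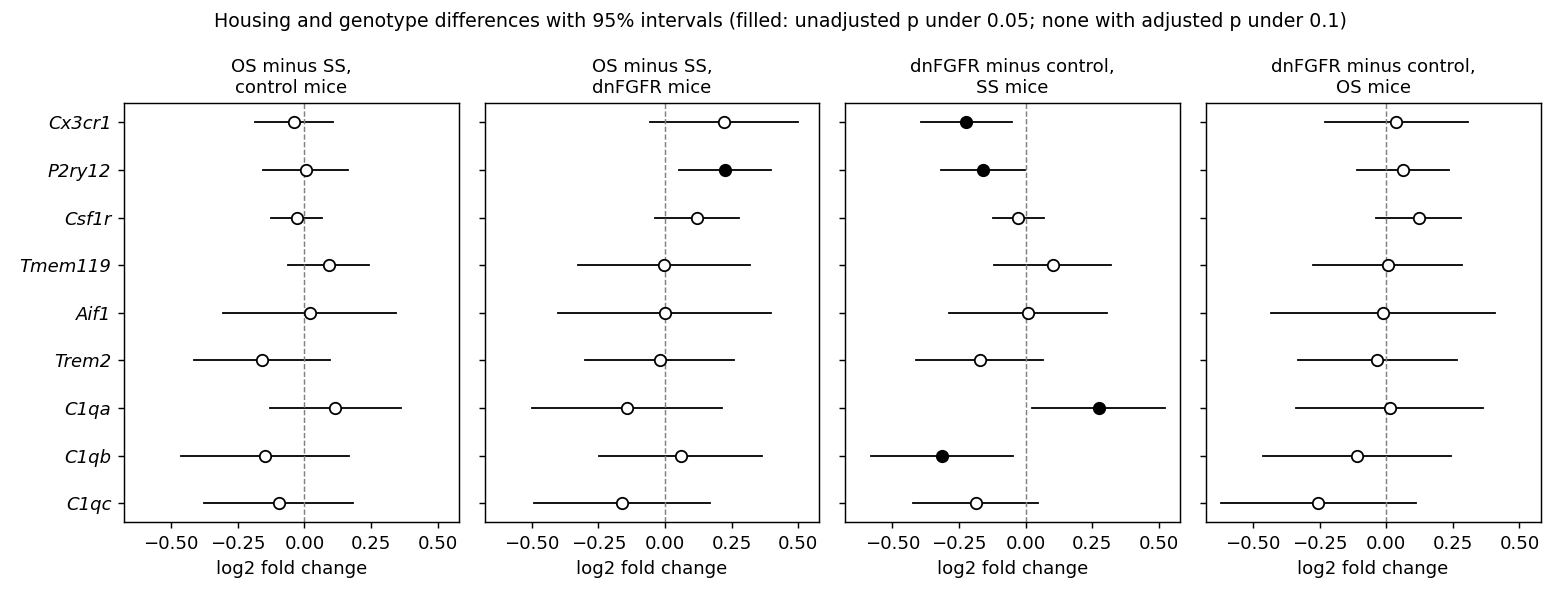
Log2 fold changes (horizontal axes) of the 9 genes with 95% intervals for housing within each genotype (OS minus SS) and for genotype within each housing (dnFGFR minus control), 5 mice against 5. Filled points have an unadjusted p under 0.05, which were 1 gene for housing in dnFGFR mice (P2ry12) and 4 for genotype in SS mice, and no gene had an adjusted p under 0.1.

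C1qa, the A chain of C1q, was 34.1, 44.3, 35.2, 34.7 and 38.0 CPM in control SS and 38.9, 54.3, 32.4, 39.0 and 37.2 CPM in control OS mice. In dnFGFR mice it was 38.6, 43.4, 56.8, 35.5 and 51.2 CPM in SS and 45.6, 46.0, 41.2, 45.5 and 25.6 CPM in OS housing. In both SS and OS mice most dnFGFR values were at or above the middle of the control values, with dnFGFR OS replicate 5 far below. C1qb, the B chain, was 28.6, 34.8, 45.0, 46.2 and 37.0 CPM in control SS and 27.0, 39.3, 29.0, 32.0 and 45.9 CPM in control OS mice. In dnFGFR mice C1qb was 25.0, 31.5, 35.6, 28.5 and 33.9 CPM in SS and 35.9, 36.2, 33.5, 33.7 and 21.2 CPM in OS housing. Its 4 highest values were all in control mice. C1qc, the C chain, was 25.7, 25.7, 32.2, 34.4 and 30.1 CPM in control SS and 21.2, 31.6, 27.1, 22.8 and 36.0 CPM in control OS mice. In dnFGFR mice C1qc was 23.3, 26.6, 31.7, 21.1 and 27.7 CPM in SS and 24.6, 27.7, 21.2, 27.1 and 15.6 CPM in OS housing. Its 2 highest values were those of the control mice that were highest in C1qb.

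Between genotypes the A chain and the other chains went in opposite directions among SS mice, and no chain was called. C1qa was higher in dnFGFR SS than in control SS mice (log2 fold change 0.27, SE 0.116, adjusted p = 0.518), and C1qb was lower (-0.31, SE 0.125, adjusted p = 0.477). Without dnFGFR SS replicate 3, C1qa gave 0.18, a change of more than 1.5 times. C1qc was -0.19 (95% interval -0.42 to 0.0477) in SS mice. Over both housings, C1qc had the smallest p of the 9 genes (log2 fold change -0.22, SE 0.107, adjusted p = 0.442). Of the 9 genes, 1 was higher and 3 were lower in dnFGFR SS mice at an unadjusted p under 0.05, where 8.63% of all genes had such a p. With all 4 groups in 1 fit, 0 were higher and 0 lower at such a p. With the GC and length trend of each mouse removed, 1 was higher and 4 were lower. The 8.63% belongs to the main fit, and the shares of all genes in these alternative fits are not given here.

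The 9 genes were split in direction in each comparison, and some of the splits moved with the processing. For housing in control mice 4 were higher and 5 lower in OS mice, with a median log2 fold change of -0.0292 against 0.00206 over all tested genes, and none had an unadjusted p under 0.05 (7.2% of all genes did). With the GC and length trend removed, 2 were higher and 7 lower (median -0.0321). For housing in dnFGFR mice the split was again 4 and 5, with a median of -0.00176 against 0.00366. For genotype in SS mice 3 were higher and 6 lower in dnFGFR mice, with a median of -0.16 against 0.00416. For genotype in OS mice 5 were higher and 4 lower, with a median of 0.00520 against 0.000134, and none had an unadjusted p under 0.05 (7.02% of all genes). The interaction had a median of 0.14 against 0.000542, with 5 positive and 4 negative values and none with an unadjusted p under 0.05 (3.41% of all genes). Without dnFGFR OS replicate 5 the interaction was positive in 7 and negative in 2 of the genes (median 0.12). With the GC and length trend removed it was positive in 8 and negative in 1 (median 0.13). C1qb, at 0.35, then had an unadjusted p under 0.05 and an adjusted p of 0.994. Over both genotypes the housing median was 0.00926 against 0.000437, with no unadjusted p under 0.05 (11.1% of all genes). Over both housings the genotype median was -0.0487 against -0.000386, with C1qc as the 1 gene with an unadjusted p under 0.05 (11.2% of all genes). Without dnFGFR OS replicate 5, C1qc was -0.16 with an unadjusted p over 0.05, and C1qa, at 0.21, had one under 0.05 (adjusted p = 0.304). With the GC and length trend removed, C1qc was -0.20 and C1qa 0.19, both with an unadjusted p under 0.05 (adjusted p = 0.239 and 0.211). With a replicate block C1qc was -0.22 with an unadjusted p over 0.05. The shares of all genes with such a p in these alternative fits are not given here. The 95% intervals of the 4 pairwise comparisons ran at their widest from -0.62, for C1qc between genotypes in OS mice, to 0.52, for C1qa between genotypes in SS mice.

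Among mice of the same group, the 9 genes did not rise and fall together. Over the 36 pairs of genes, the correlation of log2 CPM over 20 mice with group means removed had a median of -0.0394 and ranged from -0.54 (P2ry12 and C1qc) to 0.887 (C1qb and C1qc), with 16 pairs above 0 and 20 below. The points share library depth and base composition of the library, so these correlations are descriptions. C1qb and C1qc stayed together most closely, with a Spearman rho of 0.892, a Pearson r of 0.853 without the 2 mice farthest from the median of C1qb and 0.837 without dnFGFR OS replicate 5. Their ratio ranged from 1.07 to 1.58 over the 20 mice. C1qa followed Tmem119 (r 0.797, rho 0.687) more closely than it followed C1qb (0.603, 0.451) or C1qc (0.607, 0.477). Trem2 followed C1qb (0.761, 0.629), and Cx3cr1 followed Csf1r (0.705, 0.523) and P2ry12 (0.578, 0.608). Between the receptors Cx3cr1, P2ry12 and Csf1r on one side and the C1q chains on the other, all 9 correlations were below 0, from -0.54 to -0.23, with dnFGFR OS replicate 5 among the mice. Without that mouse 7 of the 9 were below 0, from -0.41 to 0.181, and Cx3cr1 with C1qb (0.138) and Csf1r with C1qa (0.181) were above 0. Without it the median of the 36 pairs was 0.178.

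**Figure D3:**
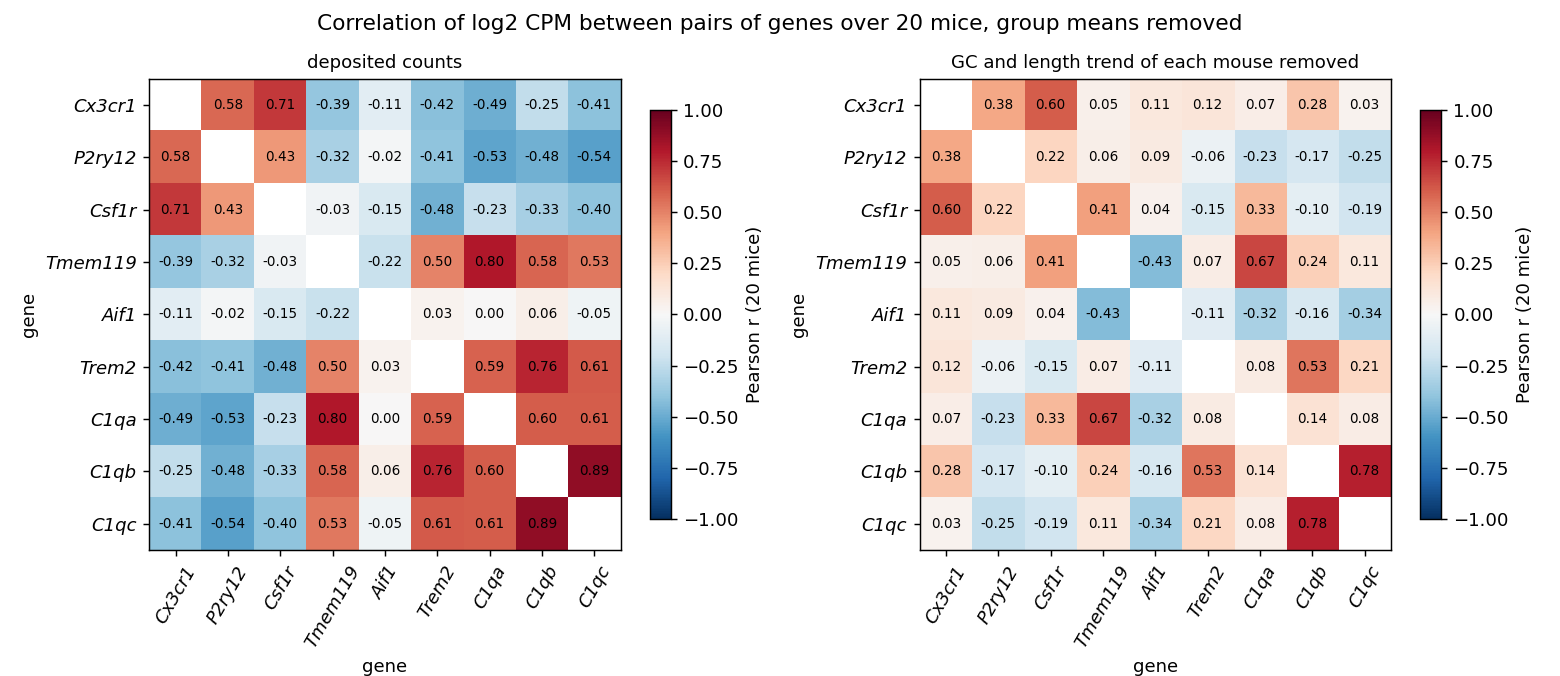
Pearson r of log2 CPM for each pair of the 9 genes over 20 mice, with group means removed, from the deposited counts (left) and after removal of the GC and length trend of every mouse (right). The C1qb and C1qc pair had 0.887 and 0.779, while the correlation of Cx3cr1 with C1qa went from -0.49 to 0.0702.

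The 2 sets of genes differ in base composition and length, and mice differed in how their levels over all genes went with these traits. The cause of that difference between mice was not tested. GC content was 57.4% to 59.5% in the mRNAs of the C1q chains, 57.5% in Trem2 and 59.1% in Tmem119, against 39.6% in P2ry12, 49.6% in Cx3cr1, 53.9% in Csf1r and 51.4% in Aif1, with a median of 50.4% over genes that passed the filter. The C1q mRNAs are 1040 to 1203 bases long, and those of Cx3cr1 and Csf1r are 3753 and 3870 bases. Over 15020 genes, each mouse's deviation from the mean of all mice was correlated with GC content, with r of -0.53 in dnFGFR OS replicate 5 and -0.30 to 0.342 in the other 19. The ratio of summed C1q CPM to the summed CPM of Cx3cr1, P2ry12 and Csf1r, a grouping chosen after the values were seen, was 0.246 in dnFGFR OS replicate 5 and 0.402 to 0.668 in the others. Over the 20 mice this ratio went with the GC trend (Pearson r 0.855, Spearman rho 0.809, and r 0.814 without the 2 mice farthest in GC trend) and against the length trend (r -0.88, rho -0.80, and r -0.85 without the 2 farthest). With the trends removed, the ratio ranged from 0.370 to 0.569. It was still lowest in dnFGFR OS replicate 5, and the next lowest was 0.421 in control SS replicate 1. The median correlation of the 36 pairs was 0.0739 with the trends removed. The pairs C1qb with C1qc (0.779), C1qa with Tmem119 (0.672), Cx3cr1 with Csf1r (0.603) and C1qb with Trem2 (0.532) then remained above 0.5, while C1qa had 0.142 with C1qb and 0.0767 with C1qc. Of the 9 pairs of a receptor with a C1q chain, 5 were then below 0, from -0.25 to 0.328. With the trends removed, 8 of the 9 genes had a positive housing difference in dnFGFR mice (median 0.0955), against 4 of 9 without that step, and none was called. Without that step 50.9% of all genes were positive, and the share with the trends removed is not given here. With the trends kept and dnFGFR OS replicate 5 left out, 6 of the 9 were positive (median 0.0805).

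**Figure D4:**
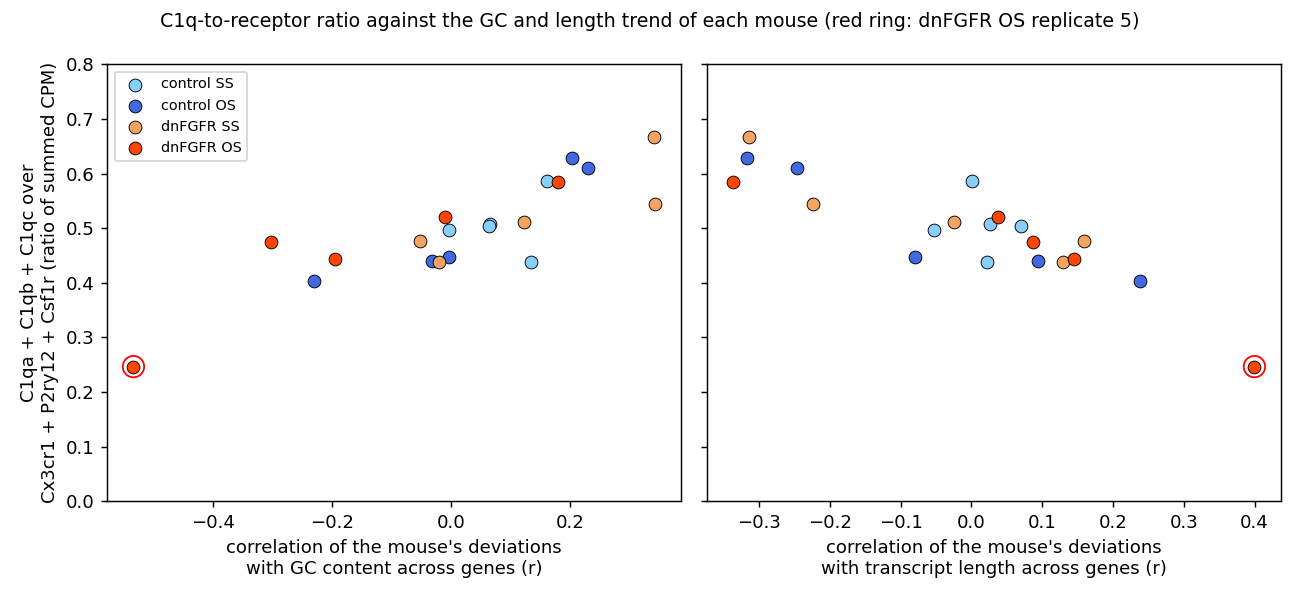
Ratio of the summed CPM of C1qa, C1qb and C1qc to that of Cx3cr1, P2ry12 and Csf1r in each mouse (vertical axis) against the correlation of the mouse's expression deviations with GC content (left) and with transcript length (right) across 15020 genes, coloured by group. The ratio went with the GC trend (r 0.855) and against the length trend (r -0.88), and dnFGFR OS replicate 5 (red ring) was lowest at 0.246.

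The mRNAs of C1qa and C1qb are alike in GC content (59.5% and 57.4%) and in length (1040 and 1088 bases). The ratio of C1qa to C1qb CPM was 0.750 to 1.27 in control SS, 0.812 to 1.44 in control OS, 1.25 to 1.60 in dnFGFR SS and 1.20 to 1.35 in dnFGFR OS mice. In 3 control mice, control SS replicates 3 and 4 and control OS replicate 5, C1qb was above C1qa, with ratios of 0.781, 0.750 and 0.812, and in all 10 dnFGFR mice C1qa was above C1qb. The ranges of the genotypes overlapped, and the ratio was looked at after the values of its genes had been seen, so no test is given. Removing the GC and length trends left a range of 0.739 to 1.57 over the 20 mice. The cause of the differences in this ratio was not tested.

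**Figure D5:**
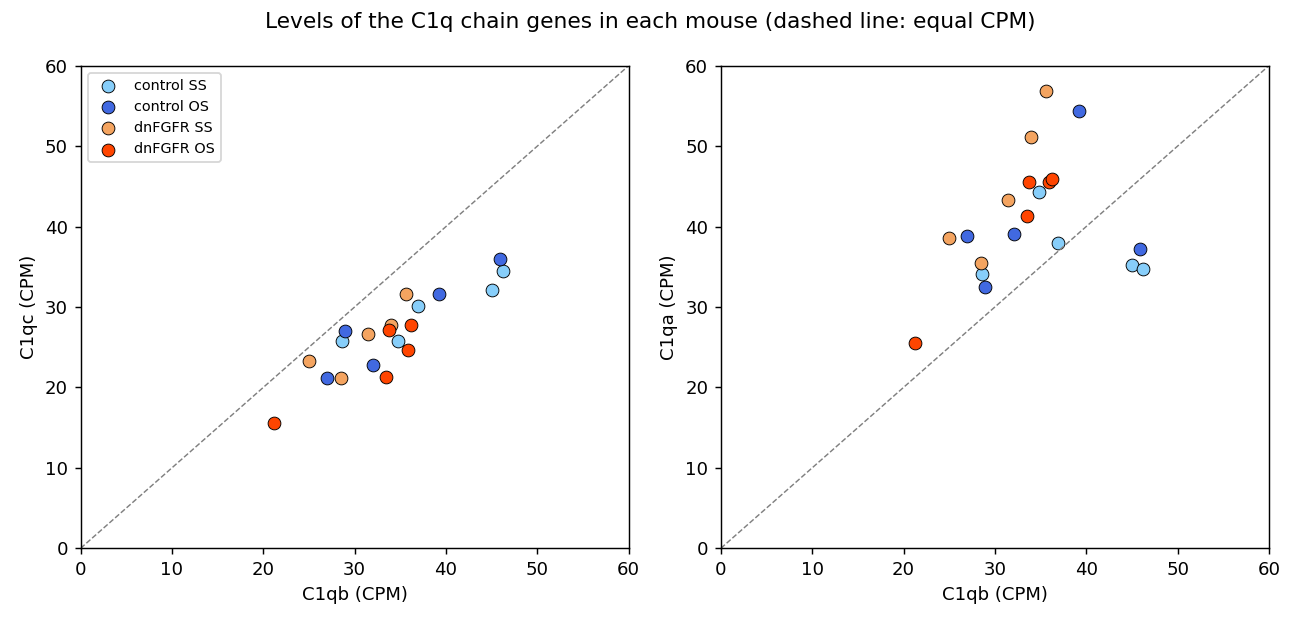
CPM of C1qc (left) and C1qa (right) against CPM of C1qb in each of the 20 mice, coloured by group, with a dashed line where the levels are equal. C1qc kept to a narrow band below C1qb, with C1qb to C1qc ratios of 1.07 to 1.58, while 3 control mice lay below the line for C1qa, with C1qa to C1qb ratios of 0.750 to 0.812.

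Likeness to the mean of the 9 was measured over the 20 mice, each centred on its group mean. The 10 non-members with the highest Pearson r were Prickle4 (0.884), Trappc6a (0.884), Tmem147 (0.881), Cst3 (0.879), Rhog (0.879), Vegfb (0.879), Meis3 (0.873), Sirt5 (0.868), Rpl12 (0.866) and H2-D1 (0.862), against a 95th percentile of 0.657 and a median of 0.0545 over 17445 genes. None of these 10 is on the list of 30 other microglial genes, of which 3 were above the 95th percentile: Ctss (0.852), the gene of the protease cathepsin S, Fcer1g (0.759), a signalling chain of Fc receptors, and Selplg (0.681), a ligand of selectins. Cst3, which encodes the secreted protease inhibitor cystatin C, had a mean of 850.4 CPM. All 10 had a GC content above 50.4%, the median of the genes that passed the filter, from 51.6% in Rpl12 to 62.6% in Vegfb. Of the 9 genes themselves, C1qb had an r of 0.905 with the mean they share in, and Cx3cr1, Csf1r and P2ry12 had -0.22, -0.17 and -0.35. Of 30 other microglial genes, 18 had an r above 0, with a median of 0.129, and 21 did without dnFGFR OS replicate 5, with a median of 0.273.

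The partners of these receptors and of C1q differed widely in level. Named for their roles, the CSF1R ligands Csf1 and Il34 had means of 5.91 and 22.7 RPKM over 20 mice, and Cx3cl1, the fractalkine gene, had 191.1 RPKM. Tyrobp, the adaptor of TREM2, had 14.0 RPKM against 10.9 for Trem2, while the proteases that C1q activates, C1ra and C1s1, had 0.673 and 0.451 RPKM. C3 had 1.35 and C4b 16.5 RPKM. None of these 8 was called in any comparison, with C3 having the smallest p (log2 fold change -0.74 between genotypes in OS mice, adjusted p = 0.646 by edgeR).

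Other genes of the same pathways were tested in the same fits, and 2 were called, both between genotypes over both housings. In the list of 40 other complement genes, of which 34 were tested there, Vtn was lower in dnFGFR mice and C5ar2 was higher, 1 in each direction, where 1.33% of all genes were called. Vtn, which encodes vitronectin, an inhibitor of the membrane attack complex, had means of 65.4 CPM (range 62.7 to 68.4) in control SS, 61.2 (52.6 to 65.6) in control OS, 53.6 (46.4 to 63.4) in dnFGFR SS and 52.1 (41.7 to 59.7) in dnFGFR OS mice (log2 fold change -0.26, SE 0.0624, adjusted p = 0.0413 by edgeR). Pericyte and fibroblast markers summed to 194.7 to 214.8, 184.5 to 215.5, 163.7 to 189.7 and 159.2 to 221.9 CPM in the same order of groups. Whether cell composition has a part in the Vtn difference was not tested. C5ar2, a receptor for C5a, was near the limit of detection, with 0 to 17 reads in control and 0 to 65 in dnFGFR mice (log2 fold change 2.35, SE 0.561, adjusted p = 0.0416), and the call was lost without dnFGFR SS replicate 5 (adjusted p = 0.101). The lists of 30 other microglial genes, 6 ligands of the receptors, 12 genes of TREM2 and CSF1R signalling, 20 disease-associated microglial genes and 16 genes of phagocytosis had no called gene in the 7 comparisons, and the lists share some genes. The smallest p in each came from Tgfbr1, a receptor for TGF-beta (housing over both genotypes, 0.25, adjusted p = 0.166), Clu, a lipoprotein that TREM2 binds (housing in control mice, 0.15, adjusted p = 0.544), Ms4a6d (housing over both genotypes, 0.52, adjusted p = 0.311), Itgax, which encodes the integrin CD11c (genotype over both housings, 0.81, adjusted p = 0.113), and Mertk, a receptor for dying cells (genotype over both housings, 0.34, adjusted p = 0.108). The smallest adjusted p was elsewhere in 2 of these lists. Among the 30 other microglial genes it was that of P2ry13, lower in dnFGFR mice over both housings (log2 fold change -0.25, adjusted p = 0.110 by edgeR). How P2ry13 fared under the alternatives is not given here. Among the 6 ligands it was 0.357 by edgeR, for housing over both genotypes. Itgax had means of 0.658 and 0.273 CPM in control SS and control OS mice and 0.888 and 0.671 CPM in dnFGFR SS and dnFGFR OS mice. Mertk had means of 36.3 and 41.9 CPM in control SS and control OS mice and 47.6 and 51.4 CPM in dnFGFR SS and dnFGFR OS mice.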

How the data were processed

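RNA of the POA of 20 male mice, 5 in each of 4 groups, was measured by bulk RNA-seq from libraries of a kit that is not described as keeping strand. The authors deposited unnormalized whole-number counts per RefSeq gene, made with Rsubread from HISAT2 alignments to GRCm38. How strand, reads with several places in the genome and overlapping genes were handled is not given in the sources used here. The table also held 20 columns of no described sample, which were not used. Groups came from the sample titles, and sacrifice dates from the study's supplement. No pair of mice within a group had counts that agree within sampling noise (40 pairs, chi-square per gene of at least 9.51).

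Counts of the 4 groups were fitted with edgeR 4.0.16 (TMM, filterByExpr, quasi-likelihood test) in R 4.3.3, and an adjusted p under 0.1 by Benjamini-Hochberg over all tested genes was called. Pairwise comparisons used the mice of their own groups, and the interaction and the 2 additive fits used all 20. Log2 CPM used a prior count of 2. The fits of some of the comparisons were tried on counts simulated from the model that the fit assumes, without a GC or length trend or an outlying mouse. The outcome is not given here, and such a trial does not show that small differences in these mice would have been called. Members and gene lists were chosen with earlier results of these data known. Statistics were given for the member with the smallest p in each comparison and for each with an unadjusted p under 0.05, for called pathway genes and for the smallest p in each list. Partners named for their roles were added later. GC content and length come from GENCODE M21 transcripts of the same genome, matched through RefSeq accessions, and promoter windows from RefSeq. The alternatives were DESeq2 1.42.0, RLE size factors, no filter, a replicate block, removal of the GC and length trend of every mouse with and without that block, all 4 groups in 1 fit, mice of shared sacrifice dates, an adjusted p under 0.05, CPM on plain totals, and each mouse left out. Removal of the trend before the correlations was chosen after seeing the data.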

Additional observations from a re-analysis of the deposited data

Results flagged for a closer look

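In 7 of the 36 sets of 5 mice (9 genes in 4 groups), over 5 genes, 1 mouse lay far from its group: its gap to the nearest other mouse, over the range of the group, was above Dixon's critical value of 0.71, which chance gives in about 1 of 20 sets. C1qa was 25.6 CPM and C1qb 21.2 CPM in dnFGFR OS replicate 5, where the nearest other mice had 41.2 and 33.5 CPM. Trem2 was 9.65 CPM in control SS replicate 1, with the next at 14.1 CPM. Cx3cr1 was 63.1 CPM in control OS replicate 3, above 55.5 CPM. Aif1 was 5.14 CPM in control SS replicate 3, above 4.27 CPM, 2.93 CPM in control OS replicate 3, below 4.34 CPM, and 3.15 CPM in dnFGFR SS replicate 2, below 4.46 CPM. dnFGFR OS replicate 5 was also the mouse that stood apart over all genes and in its trend on GC content.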

How the results depend on the processing

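None of the 9 genes was called under any of 156 alternatives, DESeq2 included, and none of the 200 alternative values for the tests named by the rule on p changed its direction or passed the threshold. The 149 medians of the 9 genes and the 36 group levels on plain totals moved by less than the spread between mice. Among mice of a group, the mean log2 CPM of the 9 genes had an SD of 0.107. That is a spread of single mice and not the error of a difference between groups, so it does not show that the medians were stable. For housing in dnFGFR mice the median moved from -0.00176 to 0.0955 with the GC and length trend removed. Counts of called genes over the whole table moved by more than 1.5 times as follows. DESeq2 called 157 genes against 21 for housing in control mice, 5 against 0 for housing in dnFGFR mice, 223 against 34 for genotype in SS mice, 78 against 9 for genotype in OS mice, 287 against 6 for housing over both genotypes and 425 against 232 for genotype over both housings. With the GC and length trend removed, the counts were 44 for housing in control mice, 25 for genotype in OS mice, 0 for housing over both genotypes and 399 for genotype over both housings, and with the replicate block as well they were 53 for housing in control mice and 1 for housing over both genotypes. The replicate block alone gave 3 for genotype in OS mice and moved no other count by over 1.5 times. All 4 groups in 1 fit gave 0 for housing in control mice and 45 for genotype in OS mice. Within sacrifice dates of both housings (among controls 2 SS with 5 OS, among dnFGFR mice 2 SS with 4 OS) 1 gene was called for housing in control mice and 0 for housing over both genotypes. At an adjusted p under 0.05 the counts were 6 for housing in control mice, 5 for genotype in OS mice and 2 for housing over both genotypes. Leaving out 1 mouse gave 0 (without control SS replicate 4) to 32 for housing in control mice, 0 for housing in dnFGFR mice, 21 to 70 (without dnFGFR SS replicate 5) for genotype in SS mice, 3 (without control OS replicate 1) to 16 (without dnFGFR OS replicate 2) for genotype in OS mice, 0 for the interaction, 0 (without control OS replicate 3) to 65 (without dnFGFR OS replicate 4) for housing over both genotypes and 176 to 336 for genotype over both housings, with 0 of the 9 genes called throughout. The cause of these moves was not tested. Mice that share a replicate number did not deviate together (correlations of -0.23 to 0.258, with 4 of 30 above 0.1), so the numbers do not pair them. Vtn stayed called under all 26 alternatives and C5ar2 under 25 of 26. Itgax and Mertk were each called under 7 of 26, with adjusted p of 0.0661 to 0.194 and 0.0326 to 0.184. Tgfbr1 was called under 2 of 27.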
